A study of Rattus norvegicus with 7 samples.

Results

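Ethanol is oxidised to acetaldehyde by alcohol dehydrogenases in the cytosol, by the cytochrome P450 CYP2E1 in the endoplasmic reticulum and by catalase in the peroxisome. Acetaldehyde, the more reactive product, is then oxidised to acetate by aldehyde dehydrogenases. The liver carries most of this work, and epithelia of the airway and upper gut hold parts of the same equipment. The transcripts of these enzymes were followed here in alveolar type 2 cells, the surfactant-making cells of the lung alveolus. The set was fixed by gene symbol as Adh1, Adh4, Adh7, Aldh1a1, Aldh2, Aldh3a1, Cyp2e1 and Cat. Of these 8 genes, 7 had at least 1 probe set annotated with that symbol alone, giving 11 probe sets of the 8740 tested. Adh1 was not analysed here. Cyp2e1 and Cat each had 3 probe sets, and the other 5 genes had 1 each.

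The cells came from male Sprague Dawley rats kept for 6 weeks on one of 2 liquid diets. In the ethanol group (3 rats), the Lieber-DeCarli diet supplied 36% of calories as ethanol. The ethanol replicates are numbered from 2 to 4, and no ethanol replicate 1 is among the samples used here. In the control group (4 rats), an isocaloric diet contained no ethanol. Type 2 cells were captured by immuno-absorption. Their RNA, prepared with Trizol and labelled with biotin, was read on Affymetrix expression arrays, 1 for each animal. The labels used here state no age. Values are log2 expression values as deposited, and differences are ethanol minus control on that log2 scale. Because the RNA was taken from bulk isolates, fewer cells of a type and less RNA per cell cannot be told apart. The sample titles open with numbers that run from 1 to 4 for controls and from 6 to 8 for ethanol. What these numbers count is not stated. If they give an order of handling, diet and that order cannot be told apart either.

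The arrays differed in how widely their values spread. Their SD over all probe sets was 1.34 to 1.46 in the ethanol group and 1.29 to 1.44 in the control group, with control 2 the narrowest and ethanol 4 the widest. Control 2 was the highest of the 7 arrays in 5 of the 11 enzyme probe sets and the lowest in 1. Surfactant protein transcripts of type 2 cells were bright, and so were some markers listed for other cells. Lyz2 of the macrophage list averaged 11.54 with ethanol and 11.82 in controls, and Scgb1a1 of the club cell list 9.24 and 9.28. No other cell type was on the arrays for comparison. Sftpc, which encodes surfactant protein C, was at 12.58 ± 0.186 (SD, n = 3) in ethanol rats and 12.80 ± 0.039 (SD, n = 4) in controls. Over 6 measured type 2 markers the mean level was 9.54 ± 0.308 with ethanol and 9.61 ± 0.141 in controls (exact permutation p = 0.686, Benjamini-Hochberg adjusted p = 0.714 over 9 marker lists). Endothelial, T and natural killer, macrophage, ciliated, and B and plasma cell marker means differed by -0.12, -0.12, 0.14, -0.10 and -0.043, with exact permutation p of 0.0286, 0.0571, 0.314, 0.314 and 0.714 and adjusted p of at least 0.193.

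None of the 11 enzyme probe sets passed the test for a difference between diets. Each was tested in limma, a linear model with moderated variance fitted over all 8740 probe sets, and an adjusted p under 0.05 counted as passing. Over all probe sets 13 passed, or 0.149%. The 11 enzyme probe sets had adjusted p between 0.967 and 0.982. At an unadjusted p under 0.05 there were 0 of the 11, against 400 probe sets (4.58%) overall. The ethanol and control arrays overlapped in every one of the 11, whereas 458 of the 8740 probe sets (5.24%) had groups that did not overlap. With 11 members, both backgrounds allow a count of 0. Of the 11 differences 6 were above 0 and 5 below, with a median of 0.071, beside -0.0051 for all probe sets.

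The intervals bound how large a difference could have been missed. In 10 of the 11 probe sets the 95% confidence interval lay inside a 2-fold change in both directions. For 3 of these 10, the probe sets of Adh4 and 2 of those of Cat, the values did not rise above the brightness of bacterial control probe sets, so their intervals bound no change in transcript. Cyp2e1 AF056333_s_at and Cat M11670_at were each within those controls on 1 array, so the same limit applies to them in part. The 1 probe set of the 11 whose interval reached a 2-fold change was that of Aldh1a1, with an upper bound of 2.13-fold. Arrays of this size were simulated with 200 changed probe sets and SDs shuffled over all probe sets. In them limma called 34.9% of the 1.5-fold changes, 77.5% of the 2-fold changes and 97.8% of the 4-fold changes. Smaller changes than 2-fold would often not be called even there. In the measured data 13 probe sets passed, and fewer true changes make the adjusted threshold stricter. The SD of Aldh1a1 was also above that of 98.1% of all probe sets. These shares are therefore not the power for a given enzyme.

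**Figure D1:**
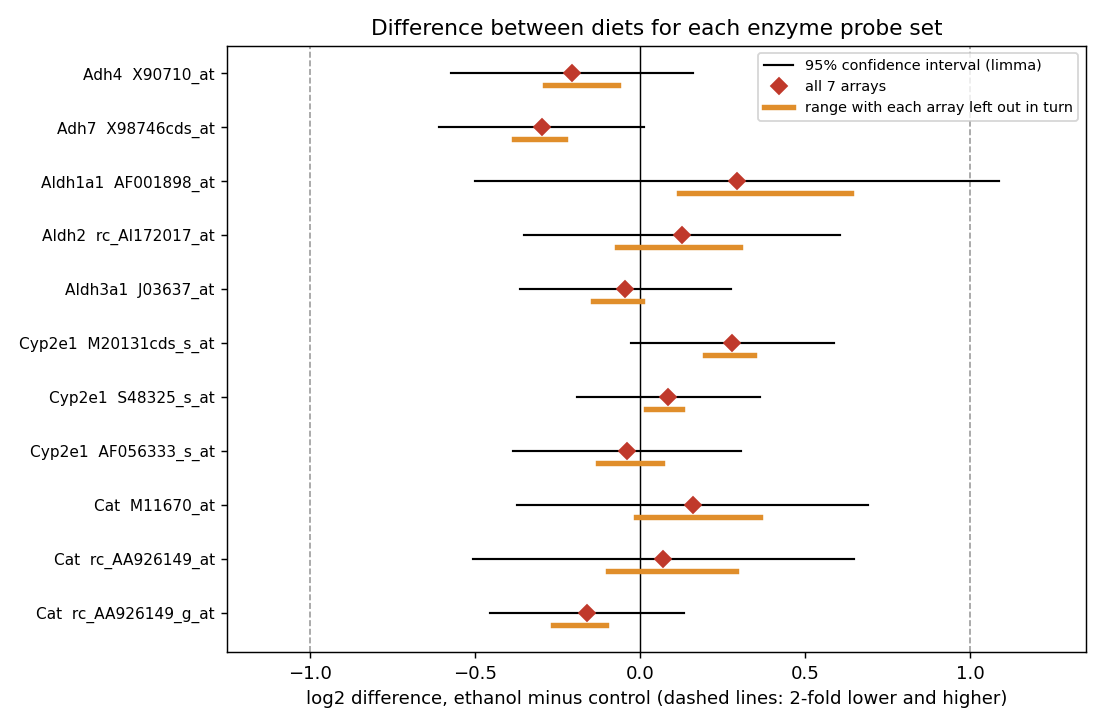
Log2 difference (ethanol minus control, x axis) of each enzyme probe set, with its 95% confidence interval from limma (black) and the range of the difference when each of the 7 arrays is left out in turn (orange). Every interval crosses 0, and only that of Aldh1a1 reaches past the dashed line at a 2-fold rise.

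Baseline brightness differed widely between the enzymes. Rat cells have no transcripts for the 15 Bacillus subtilis control probe sets on the array, so their values, 2.32 to 4.08 over all arrays, served as a measure of background brightness. They are no detection call, and brightness of different probe sets does not order the abundance of their transcripts. On all 7 arrays, 6 enzyme probe sets lay above the brightest bacterial control of the same array: those of Aldh1a1, Aldh2, Aldh3a1 and Adh7, and 2 of the 3 for Cyp2e1. The Adh4 probe set and 2 of the 3 Cat probe sets lay within the bacterial range on all 7 arrays. The remaining probe set of each of Cyp2e1 and Cat was above the controls on 6 arrays and within them on 1.

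**Figure D2:**
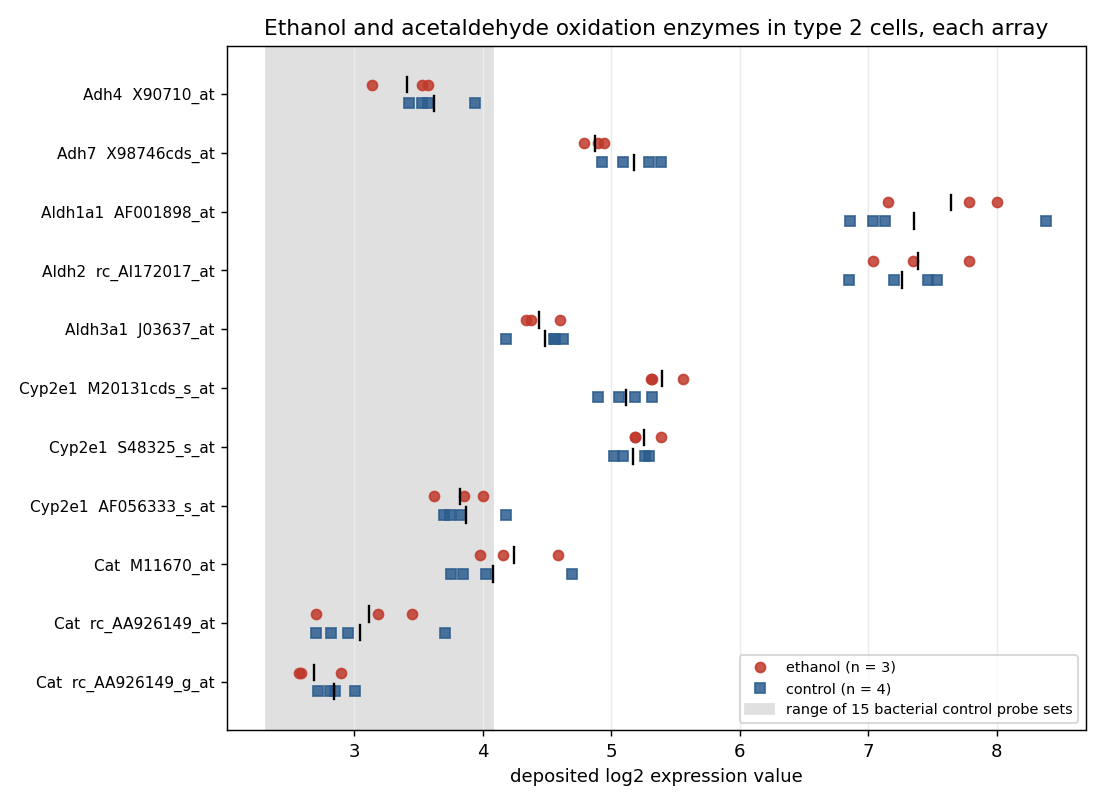
Deposited log2 value (x axis) of each enzyme probe set on each array, with ethanol arrays (circles, n = 3) above control arrays (squares, n = 4) in each row and group means as black ticks. The grey band spans the 15 bacterial control probe sets, 2.32 to 4.08. Aldh1a1 and Aldh2 sit far to the right of it, while Adh4 and 2 Cat probe sets sit inside it.

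The first step of ethanol oxidation in the cytosol was read through Adh7 and Adh4. Adh7 encodes the class IV alcohol dehydrogenase, which is known from stomach and other epithelia and also oxidises retinol. Its probe set, X98746cds_at, read 4.90, 4.79 and 4.94 in ethanol 2, 3 and 4, against 5.39, 5.09, 5.30 and 4.93 in controls 1 to 4. All ethanol values lay below the 3 higher controls, and only control 4 fell among them. The level averaged 4.88 ± 0.079 (SD, n = 3) with ethanol and 5.17 ± 0.206 (SD, n = 4) in controls, a difference of -0.30 (SE 0.138, 95% confidence interval -0.61 to 0.012). As a ratio this is 0.813-fold, with an interval from 0.656 to 1.01. It had the lowest p of the 11 probe sets, 0.0576 unadjusted, but an adjusted p of 0.967 in limma. The unadjusted p was 0.0205 without control 4 and 0.165 without ethanol 3, and the adjusted p in every alternative tried was at least 0.269.

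Marker means of more than 1 cell type shared part of the Adh7 pattern. The mean over 12 fibroblast and smooth muscle markers, of which 11 had a difference below 0 and 0 passed the test, was 5.12, 5.02 and 5.01 in ethanol 2, 3 and 4. In controls 1 to 4 it was 5.48, 5.48, 5.40 and 5.06. As with Adh7, control 4 was the control that lay among the ethanol arrays. The order within the ethanol arrays differed, as ethanol 4 was the highest of them for Adh7 and the lowest for the marker mean. The marker mean differed by -0.31 (exact two-sided permutation p = 0.0857, adjusted p = 0.193 over 9 lists). Of the 12 markers 5 had an unadjusted p under 0.05 in limma, or 41.7%, against 4.58% of all probe sets, and all 5 were lower with ethanol. They were Eln, which encodes elastin, at -0.80 (limma unadjusted p = 0.00114, adjusted p = 0.403), the collagen genes Col3a1, Col1a2 and Col1a1 at -0.99, -0.62 and -0.50, and Tagln, an actin-binding protein of smooth muscle, at -0.28. The part of these cells in the Adh7 values was not tested.

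The genes whose level followed Adh7 most closely over the 7 arrays were Pts, an enzyme of tetrahydrobiopterin synthesis (Pearson r = 0.97, Spearman rho = 1.0), the collagen gene Col9a1 (r = 0.97, rho = 0.96) and Pdzd11 (r = 0.96, rho = 0.89). Without the 2 arrays farthest from the Adh7 median, control 1 and control 3, r was 0.90, 0.89 and 0.78. They were chosen for this likeness among all named genes, so the values are descriptions without a test, and the arrays share their scaling.

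Adh4 encodes the class II enzyme, typical of liver. Its probe set X90710_at read 3.53, 3.57 and 3.14 with ethanol and 3.57, 3.94, 3.53 and 3.43 in controls, all within the bacterial control range. The difference of -0.21 (SE 0.164, limma adjusted p = 0.967) was therefore between levels that could not be told from background brightness. The 11 measured hepatocyte markers had a mean level of 4.58 ± 0.039 in ethanol rats and 4.59 ± 0.026 in controls (exact permutation p = 0.629, adjusted p = 0.714).

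Cyp2e1 encodes the microsomal P450 best known for its induction by ethanol in liver. The 3 probe sets carry the suffix _s_at, which in the manufacturer's naming marks probes that can match more than 1 transcript. The 100 bases before the annotated start of the rat gene are shown here with those of Aldh1a1, whose probe set had the highest signal and the widest range of the 11. They come from RefSeq (build GRCr8), run 5′ to 3′ and stand at chr1:205269867-205269966 (plus strand) for Cyp2e1 and chr1:227537520-227537619 (plus strand) for Aldh1a1. Capitals mark the TATA box letters TATAAA and the CCAAT box letters, searched on both strands (ATTGG is CCAAT on the other strand).

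Cyp2e1: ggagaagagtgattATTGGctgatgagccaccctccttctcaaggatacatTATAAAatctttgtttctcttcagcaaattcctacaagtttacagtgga
Aldh1a1: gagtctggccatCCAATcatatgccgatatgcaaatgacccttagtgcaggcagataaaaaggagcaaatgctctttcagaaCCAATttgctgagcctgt

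Promoter sequence was matched for 5 of the 8 genes. The Cyp2e1 window holds TATAAA from base -49 to -44 before the start and CCAAT on the reverse strand from -86 to -82, while Aldh1a1 has CCAAT at -88 to -84 and again at -18 to -14. Over 250 bases before the start, 12.9% of the 33469 RefSeq promoters hold TATAAA and 34.0% hold CCAAT on either strand. A match of letters is a description and does not show that a factor binds there.

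The brightest Cyp2e1 probe set, M20131cds_s_at, read 5.55, 5.31 and 5.32 in ethanol 2, 3 and 4, against 4.89, 5.31, 5.19 and 5.06 in controls 1 to 4. Only control 2 reached the ethanol values. Means were 5.39 ± 0.141 (SD, n = 3) in ethanol rats and 5.11 ± 0.179 (SD, n = 4) in controls, a difference of 0.28 (SE 0.137, 95% confidence interval -0.028 to 0.59). This is a ratio of 1.21, with an interval from 0.980 to 1.50, and it did not pass (limma unadjusted p = 0.0705, adjusted p = 0.967). With each array left out the difference ran from 0.20 (without ethanol 2, unadjusted p = 0.229, adjusted p = 0.953) to 0.35. The upper end was without control 2, the array with the narrowest spread (unadjusted p = 0.0292, adjusted p = 0.981).

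The other Cyp2e1 probe sets showed smaller differences. S48325_s_at read 5.38, 5.19 and 5.19 with ethanol and 5.09, 5.26, 5.29 and 5.02 in controls, with a difference of 0.086 (95% confidence interval -0.19 to 0.36). AF056333_s_at, near the bacterial controls, read 4.00, 3.86 and 3.62 with ethanol and 3.83, 4.18, 3.75 and 3.70 in controls, with a difference of -0.040 (95% confidence interval -0.39 to 0.31). With the 3 probe sets averaged, the Cyp2e1 difference was 0.11 (unadjusted p = 0.403).

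Over the 7 arrays the 2 brighter Cyp2e1 probe sets followed each other (Pearson r = 0.80, exact permutation p = 0.0329; Spearman rho = 0.71, exact permutation p = 0.0881). Adjusted over the 6 pairs of probe sets of one gene, these p-values were 0.198 and 0.529, and r was 0.59 without the 2 arrays farthest from the median. The pairs with AF056333_s_at had r of 0.39 and 0.50, with exact permutation p of 0.391 and 0.250. The levels most like the brightest Cyp2e1 probe set were those of Trappc3, a vesicle-tethering subunit (r = 0.99, rho = 0.89), Rbm39, a splicing regulator (r = 0.98, rho = 0.96), and Bpnt1, a bisphosphate nucleotidase (r = 0.97, rho = 0.93), again chosen for likeness and not tested.

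Catalase, the peroxisomal enzyme that breaks down hydrogen peroxide and can use it to oxidise ethanol, was dim in all of its probe sets. M11670_at read 4.16, 3.98 and 4.59 in ethanol 2, 3 and 4, against 3.75, 3.85, 4.03 and 4.70 in controls. Ethanol 4 and control 4 were the high arrays, so the spread was within the groups. The difference was 0.16 (95% confidence interval -0.37 to 0.69, limma adjusted p = 0.971). Without control 4 it was 0.36 (unadjusted p = 0.0695), and without ethanol 4 it was -0.013.

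The rc_AA926149_at and rc_AA926149_g_at probe sets of Cat stayed within the bacterial range, at 2.70 to 3.45 and 2.57 to 2.89 with ethanol and at 2.70 to 3.70 and 2.72 to 3.01 in controls. Their differences were 0.071 and -0.16, with adjusted p of 0.982 and 0.967. M11670_at had a Pearson r of -0.41 and -0.33 with them (exact permutation p = 0.358 and 0.455, adjusted p = 0.455 for both), and Spearman rho of -0.11 and -0.32. The rc_AA926149_at and rc_AA926149_g_at pair had r of 0.405 and rho of 0.39 (exact permutation p = 0.356 and 0.396, adjusted p = 0.455 and 0.667). Without the 2 arrays farthest from the median, r in these 3 pairs was 0.32, -0.47 and 0.78.

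Of the enzymes of the second step, Aldh2 and Aldh1a1 had the brightest probe sets of the 11. Aldh2 encodes the mitochondrial enzyme that clears most acetaldehyde. Its probe set rc_AI172017_at read 7.03, 7.35 and 7.78 in ethanol 2, 3 and 4, against 7.46, 6.85, 7.20 and 7.53 in controls 1 to 4. The groups overlapped over most of their range. The level was 7.39 ± 0.375 (SD, n = 3) with ethanol and 7.26 ± 0.310 (SD, n = 4) in controls, a difference of 0.13 (SE 0.214, 95% confidence interval -0.35 to 0.61, limma adjusted p = 0.971).

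Aldh2 was highest on ethanol 4 and lowest on control 2, which were also the arrays of widest and narrowest spread. With array spread as a covariate the difference was 0.0037, after quantile normalization 0.066, and without ethanol 4 it was -0.070. Other settings gave larger differences. With replicate number as a block the difference was 0.19 (limma unadjusted p = 0.139, adjusted p = 0.70), and without ethanol 2 it was 0.30. The levels most like Aldh2 over the 7 arrays belonged to the ribosomal protein genes Rpl19 (r = 0.99, rho = 0.96) and Rps3 (r = 0.98, rho = 0.96) and to Micos13, a subunit of the mitochondrial cristae complex (r = 0.98, rho = 1.0). These were picked for likeness and carry no test.

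Aldh1a1 encodes a cytosolic aldehyde dehydrogenase that oxidises retinal to retinoic acid and also acts on acetaldehyde. It varied widely between animals. Its probe set AF001898_at read 7.79, 7.16 and 8.00 in ethanol 2, 3 and 4, against 8.39, 7.03, 7.13 and 6.85 in controls 1 to 4. Control 1 was the highest array of all, and the other controls lay below every ethanol array. The lowest and highest animals, both controls, differed 2.89-fold, and the SD within groups was 0.609, above that of 98.1% of all probe sets. The mean level was 7.65 ± 0.439 (SD, n = 3) with ethanol and 7.35 ± 0.699 (SD, n = 4) in controls, a difference of 0.30 (SE 0.353, limma adjusted p = 0.971). As a ratio this was 1.23, with a 95% confidence interval from 0.708 to 2.13. The difference depended on single arrays. It ran from 0.12 without ethanol 4 (unadjusted p = 0.777, adjusted p = 0.993) to 0.64 without control 1 (unadjusted p = 0.0192, adjusted p = 0.996).

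The 3 genes with the level most like Aldh1a1 by Pearson r were Nckap1, Cyp2f4 and Bpifa5, in that order. Cyp2f4 is a P450 of the secretory club cells of the airway. It was at 7.57, 6.73 and 7.48 in ethanol 2, 3 and 4, against 7.91, 6.15, 6.68 and 6.59 in controls (r = 0.94, rho = 0.93). Nckap1, a regulator of actin assembly (r = 0.96, rho = 0.82), and Bpifa5, a gene of the secreted BPI fold family (r = 0.92, rho = 0.89), were the other two. Without control 1 and ethanol 4, the arrays farthest from the Aldh1a1 median, r was 0.88, 0.86 and 0.89 for Cyp2f4, Nckap1 and Bpifa5. These genes were also chosen for their likeness and not tested.

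The mean of the 5 measured club cell markers was 7.63, 7.36 and 7.72 in ethanol 2, 3 and 4, against 7.62, 6.68, 6.78 and 6.98 in controls. It too was high in control 1 and, among the ethanol arrays, lowest in ethanol 3. Control 4, the lowest array of all for Aldh1a1, lay above controls 2 and 3 in this mean. Cyp2f4, chosen above for its likeness to Aldh1a1, is among the 5 markers. The marker mean differed by 0.56 (exact permutation p = 0.0857, adjusted p = 0.193 over 9 lists). Of its 5 genes 4 were above 0 in difference and 0 passed the test, while 2 (40.0%) had an unadjusted p under 0.05 in limma, against 4.58% of all probe sets. These 2, whose groups did not overlap, were the P450 gene Cyp2a3 at 1.15 (limma unadjusted p = 0.000124, adjusted p = 0.0777) and the lipid-binding protein gene Sec14l3 at 1.11 (unadjusted p = 0.00539, adjusted p = 0.906). The others were Cyp2f4 at 0.43, the P450 gene Cyp4b1 at 0.13 and Scgb1a1 at -0.046. The defining club cell transcript Scgb1a1, which encodes the club cell secretory protein, was at 9.13, 9.40 and 9.19 with ethanol and at 9.83, 9.10, 8.91 and 9.30 in controls. It shared the high value of control 1 but not the order of the ethanol arrays. The part of club cells in the Aldh1a1 values was not tested.

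**Figure D3:**
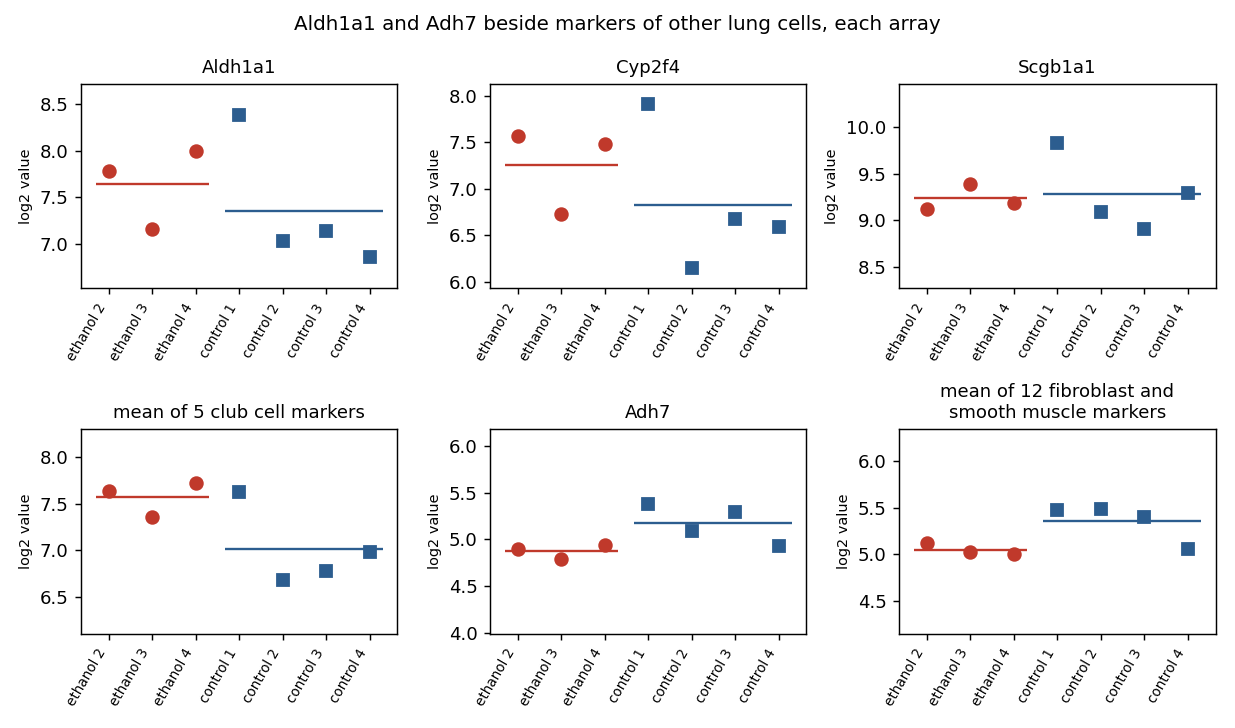
Log2 value (y axis) on each array (x axis) for Aldh1a1 with Cyp2f4, Scgb1a1 and the mean of 5 club cell markers, and for Adh7 with the mean of 12 fibroblast and smooth muscle markers. Circles are ethanol arrays (n = 3), squares control arrays (n = 4), and lines group means. All panels span the same number of log2 units. Control 1 is the highest array for Aldh1a1, Cyp2f4 and Scgb1a1, and control 4 is the control nearest the ethanol arrays for Adh7.

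Aldh3a1, which encodes an enzyme for aromatic and medium-chain aldehydes known from the cornea, had the probe set J03637_at. It read 4.60, 4.37 and 4.34 with ethanol and 4.18, 4.62, 4.55 and 4.57 in controls, where control 1 was the lowest array of all 7. The difference was -0.044 (SE 0.143, 95% confidence interval -0.36 to 0.28, limma adjusted p = 0.982).

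Genes of neighbouring steps were described through 7 lists, each gene by its brightest probe set. Of their 61 measured genes, 28 were above 0 and 33 below, with a median difference of -0.019, and 0 passed the test in either direction. At unadjusted p under 0.05 there was 1 gene, or 1.64%, against 4.58% of all probe sets. That gene, Got1, was also the one gene of the 61 whose groups did not overlap. Got1 encodes the cytosolic aspartate aminotransferase of the malate-aspartate shuttle, which carries electrons of the NADH made by alcohol dehydrogenase into mitochondria. It averaged 5.19 ± 0.143 (SD, n = 3) with ethanol and 5.47 ± 0.074 (SD, n = 4) in controls, a difference of -0.28 (SE 0.118, limma unadjusted p = 0.0419, adjusted p = 0.967). The other shuttle genes with the lowest p were Got2, its mitochondrial counterpart, at -0.10 and Gpd2, the mitochondrial glycerol-3-phosphate dehydrogenase, at -0.12. Over 8 shuttle genes the median was -0.050.

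Among 7 other alcohol and aldehyde dehydrogenases, 1 was above 0 and 6 below (median -0.076). Adh5, the formaldehyde-clearing class III enzyme, had a level of 5.08 ± 0.032 with ethanol and 5.33 ± 0.303 in controls and a difference of -0.24. Aldh1l1, of folate metabolism, was at -0.085 and Aldh7a1, of lysine breakdown, at -0.076. Of 9 aldehyde and ketone reductases and oxidases, 4 were above 0 and 5 below (median -0.020). Xdh, xanthine dehydrogenase, stood at 0.39, the aldehyde reductase Akr7a2 at 0.21 and the hydroxysteroid dehydrogenase Akr1c14 at -0.099.

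Of 10 genes that supply electrons or haem to P450 enzymes, 6 were above 0 and 4 below (median 0.041). Alas1, the first enzyme of haem synthesis, was at 6.34 ± 0.573 (SD, n = 3) with ethanol and 5.87 ± 0.418 (SD, n = 4) in controls, a difference of 0.47 (95% confidence interval -0.18 to 1.12) that ran from 0.15 to 0.69 with each array left out. The cytochrome b5 genes Cyb5a and Cyb5b were at -0.25 and -0.12. The 6 genes of acetate and acetyl-CoA use had a median of 0.14, with 4 above 0 and 2 below. Leaving out ethanol 4 or control 2 brought that median to 0.021 or 0.037, and adjusting for array spread to 0.036. Acot1 and Acot2, which encode acyl-CoA thioesterases, were at 0.36 and 0.23, and the thiolase gene Acat1 was at 0.16.

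The 12 peroxisomal genes split evenly, 6 above and 6 below 0 (median 0.012). The peroxisome biogenesis genes Pex2, Pex6 and Pex10 were at 0.25, 0.098 and -0.29. Of 9 genes of nonoxidative ethanol metabolism 3 were above 0 and 6 below (median -0.081). Lpl, lipoprotein lipase, was at 0.59, with an interval from -0.38 to 1.55, and the carboxylesterase genes Ces1d and Ces2e were at 0.47 and 0.16. With each array left out Lpl ran from 0.27 (without ethanol 2) to 0.96 (without ethanol 3), Ces1d from 0.15 (without ethanol 4) to 0.78 (without ethanol 2), Xdh from 0.17 to 0.63 and Akr7a2 from 0.028 to 0.32. Limma adjusted p for all 61 genes was at least 0.967, and the intervals of 4 of them reached past a 2-fold change.

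**Figure D4:**
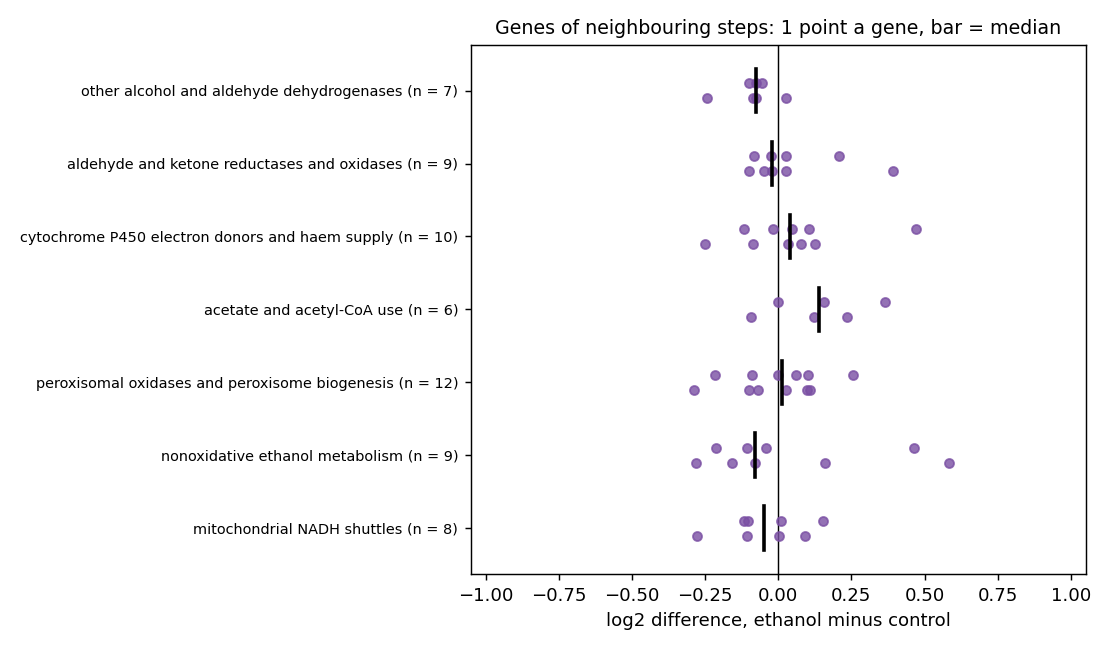
Log2 difference (ethanol minus control, x axis) of the 61 measured genes in 7 lists of neighbouring steps, 1 point a gene, with the median of each list as a bar. List medians lie between -0.081 and 0.14, and the point farthest from 0 is Lpl at 0.59.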

How the data were processed

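Per the labels' protocols, biotin-labelled RNA was hybridised to Affymetrix arrays. The values were used as deposited and were read as log2 expression from their range. Probe summarisation, background correction and normalization are not given in the sources used here, so depth and detection are unknown, and the number of arrays limits the precision. The median SE of a log2 difference was 0.148.

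After 59 array controls were left out, 8740 probe sets were tested with limma 3.58.1 in R 4.3.3 (diet as the term, two-sided, Benjamini-Hochberg adjustment over all). Symbols came from the platform's annotation table, which gave 1 symbol to 7006 probe sets, several to 308 and none to 1426. No gene was named from several symbols. By RefSeq (GRCr8), 6985 matched, and 0 symbols changed. A gene's brightest probe set stood for it in lists. Of each neighbouring list, the up to 3 genes of lowest p were named, and cell type markers with an unadjusted p under 0.05 were named after their values were seen. Marker means were compared by exact permutation over the 35 splits of the arrays, where p is the share of splits with at least the observed absolute difference.

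The members and lists were chosen with earlier results of these data known. Array spread as a covariate was added after seeing the data. The limma fit was tested on simulated data (20 simulations, 200 changed of 8740 probe sets, varying independently), with 5.27% false calls.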

Additional observations from a re-analysis of the deposited data

Results flagged for a closer look

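In 41 values read in the 4 controls (the 11 enzyme probe sets, 21 neighbouring genes and 9 marker means), 4 had a control array set apart from the others by a gap larger than Dixon's critical value for 4 samples. Chance gives about 1 in 20. Aldh3a1 (J03637_at) had 4.18 in control 1, while the 3 remaining controls had 4.55 to 4.62. Aldh1l1 (M59861_at) was at 4.13 in control 3 against 4.27 to 4.30, and Pex2 (X57988mRNA_s_at) at 3.53 in control 4 against 4.28 to 4.43. The mean of the 6 macrophage and monocyte markers was at 6.52 in control 4 against 6.11 to 6.16.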

How the results depend on the processing

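No enzyme probe set and no neighbouring gene passed under any alternative run: other scalings between arrays, filters on dim probe sets, other variance settings, array weights, the replicate block, array spread, and each array left out. Averaging a gene's probe sets, or taking the brightest alone, was run for the enzymes only and gave 0 calls among them. The filters at the 25th and 50th percentile of brightness removed 3 and 6 of the 11 probe sets, which then had no value. The lowest adjusted p among the enzymes was 0.269, for Adh7 with array weights. In any 1 run at most 1 enzyme had an unadjusted limma p under 0.05, but not always the same enzyme. The lowest were 0.0065 for Adh7 (array weights), 0.0154 for Cyp2e1 M20131cds_s_at (array spread) and 0.016 for Aldh1a1 (replicate block). Those runs had 1035, 764 and 710 of the 8740 probe sets under 0.05, against 400 in the main fit. Over all probe sets the 13 calls became 0 in limma without variance moderation (367 at unadjusted p under 0.05) and 23 with the replicate block. Same-numbered arrays had correlated deviations in 2 of 3 pairs (0.425 and 0.432) but not in the third (0.067). Ethanol and control arrays of different number had correlations from -0.531 to 0.352, all below those 2. Whether the numbers mark pairs is therefore not settled. The main fit did not take them as pairs, and the replicate block did. The block sets control 1 aside, and Aldh1a1 was at 0.64 with it and at 0.039 with array weights. Differences near 0 changed sign. Cyp2e1 AF056333_s_at was at 0.040 with array weights and 0.032 with array spread, and Cat rc_AA926149_at at -0.043 with the replicate block. With each array left out, Aldh2 ran from -0.070 to 0.30, Aldh3a1 from -0.14 to 0.0060, Cyp2e1 AF056333_s_at from -0.13 to 0.066, Cat M11670_at from -0.013 to 0.36 and Cat rc_AA926149_at from -0.097 to 0.29. The type 2 marker mean ran from -0.17 to 0.11 and the hepatocyte marker mean from -0.021 to 0.014. The hepatocyte mean was 0.0025 after quantile normalization and 0.0041 after median centring. Of the 9 marker lists 1 (endothelium) had an exact permutation p under 0.05, and 0 did with any array left out, where the arrays are too few to reach it. After quantile normalization and median centring the endothelial p was 0.0571 and 0.0857, and T and natural killer cells had a p of 0.0286 in both. The cause of these changes was not tested. Probe sets within the bacterial control range limit what can be said of Adh4 and Cat.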
